A study of Danio rerio with 11 samples.

Results

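Among the methylation peaks of adult zebrafish, 3494 regions were found in heart, eye and liver and not in brain. They were chosen by the presence of peaks in 4 lists, as those heart peaks whose interval overlapped an eye peak and a liver peak by at least 1 bp and no brain peak. The heart list held 50110 peaks, of which 41455 were also found in eye and liver, and the 9 lists of the series held 816382 peaks in all. The 3494 regions are called here the brain-lacking peaks, and the 37961 heart peaks found in eye, liver and brain alike are called the brain-shared peaks. The name says that the brain list has no overlapping interval there. It does not say that brain DNA is unmethylated there.

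The lists came from MBD-seq, in which sheared genomic DNA is bound to a protein domain that recognizes methylated CpGs, and the bound, methylation-rich fraction is sequenced. Heart, eye, liver and brain were pooled from untreated adult Tübingen/AB females. The other lists came from the same strain. They were from sperm of untreated males and from untreated whole embryos at the one-cell, midblastula transition (mbt) and 3 days post-fertilization (3dpf) stages. A further list was from 3dpf embryos raised after 400 µM methotrexate was applied at the one-cell stage (MTX-3dpf). Every condition had 1 methylation-rich library. For brain, reads of lanes 4 and 5 were pooled into 1 list. Eye, heart and liver were sequenced in lane 4, sperm, one-cell and mbt in lane 5, and the 3dpf samples in neither. A methylation-poor brain library was sequenced as a control in lane 4 and in lane 5. The paper's read counts list such a control for each 3dpf sample too, and none for eye, heart, liver, sperm, one-cell or mbt. Lane, a control of its own and tissue therefore cannot be told apart between brain and the other adult lists. Nor can lane, a control of its own and stage between the 3dpf lists and the sperm, one-cell and mbt lists. With 1 library per condition no test across replicates was possible. All intervals given for shares are Wilson 95% intervals, which cover counting error alone, and neighbouring regions of 1 library are not independent.

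In vertebrates most CpG dinucleotides carry a methyl group on the cytosine, placed and kept by DNA methyltransferases, and the unmethylated ones lie mostly at promoters and other CpG-dense stretches. Binding to a methyl-CpG domain rises with the number of methylated CpGs on a fragment, so a peak marks DNA that is both methylated and rich in CpGs. Methylation is largely copied at each cell division, and tissues of 1 animal share most of their methylated sites. The peak lists hold no expression values and name no genes, and no Zv9 genome or gene models were used here, so the tissues could not be checked against markers and the regions are given by position alone. Each interval is 201 bp long, the peak centre with 100 bp to each side, except for 1 narrower interval in eye and 1 in sperm. All coordinates are on Zv9.

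The 4 adult lists differed in length, with 79008 peaks in brain, 45785 in eye, 50110 in heart and 50170 in liver. By the paper's read counts, each brain lane alone held nearly as many usable reads as heart or liver, and more than eye. The pooled brain list thus rested on more reads than the other adult lists, and whether its length follows from that was not tested. Brain had the longest list and lacked a peak at 8.43% of the 41455 heart peaks found in eye and liver (95% CI 8.16 to 8.70). Over the whole heart list, 10.9% of the peaks had no overlapping brain peak. Of those 5461 peaks, 64.0% were also in eye and liver and so are the regions described here, and the other 1967 were missing from eye or liver too. These shares follow from the rule and are given as a description.

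For comparison, the same count was made for each of the other adult tissues in turn. Eye lacked a peak at 3355 of 41316 heart peaks found in brain and liver (8.12%). Liver lacked a peak at 1321 of 39282 heart peaks found in brain and eye (3.36%), and heart at 804 of 38798 eye peaks found in brain and liver (2.07%). These counts moved with the lengths of the lists. With each of the 4 lists limited to its 45785 highest-scoring peaks, the length of the eye list, brain lacked a peak at 6249 of 39545 (15.8%, 95% CI 15.4 to 16.2), eye at 2.26%, heart at 2.38% and liver at 3.00%. The cut left the eye list whole and shortened the brain list the most, from 79008 peaks. At most 3494 of the 6249 lacked brain in the full lists. The others overlapped a lower-scoring brain peak that the cut removed, so the 15.8% is not a share without any brain peak. That comparison was added after the data had been seen.

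The brain-lacking peaks lay close to brain peaks. The distance from their centre to the nearest brain centre had a median of 1062 bp and quartiles of 494 and 2033 bp, and 90% of the distances were at most 3080 bp. A brain centre was within 1000 bp of 1641 of them, which is 47.0% (95% CI 45.3 to 48.6), and within 5000 bp of 3444, which is 98.6%. The rule sets the lower end of this distribution, since intervals of 201 bp no longer overlap once their centres are 201 bp apart. It sets no upper end, but 122 of the regions were 4001 to 5000 bp from a brain centre, 27 were 5001 to 10000 bp away and 23 were farther. Brain centres lay to the right of 1756 of the regions and to the left of 1738.

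In the full lists, the brain-lacking peaks lay nearer to the list that lacked them than the peaks missing from other tissues did. Against their median of 1062 bp, those missing from eye had a median of 8246 bp to the nearest eye centre, those missing from liver 4797 bp to the nearest liver centre, and those missing from heart 3292 bp to the nearest heart centre. Against the 47.0% of the brain-lacking peaks, a centre of the lacking list was within 1000 bp of 7.60% of the peaks missing from eye (95% CI 6.75 to 8.55), 22.9% of those missing from liver and 30.0% of those missing from heart (95% CI 26.9 to 33.2). Beyond 5000 bp lay 1.43% of the brain-lacking peaks, against 63.0% of the peaks missing from eye, 49.2% of those missing from liver and 41.7% of those missing from heart. With lists of equal length the contrast was smaller, and it was not seen in the share within 1000 bp. At regions whose overlapping brain peak the cut removed, the distance then ran to another brain centre, so this change is partly built in. The median distance of the 6249 peaks then lacking brain to a brain centre was 2789 bp, against 5176 bp for peaks missing from eye, 3840 bp for heart and 5099 bp for liver. A centre of the lacking list was then within 1000 bp of 23.4% of those lacking brain (95% CI 22.3 to 24.4), against 24.8% for eye, 24.97% for heart and 23.8% for liver, all with intervals that overlap. With the brain list alone shortened to the length of the heart list, which removes overlapping brain peaks in the same way, the median distance was 2152 bp. In the full brain list, centres were a median of 4943 bp from the next brain centre.

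**Figure D1:**
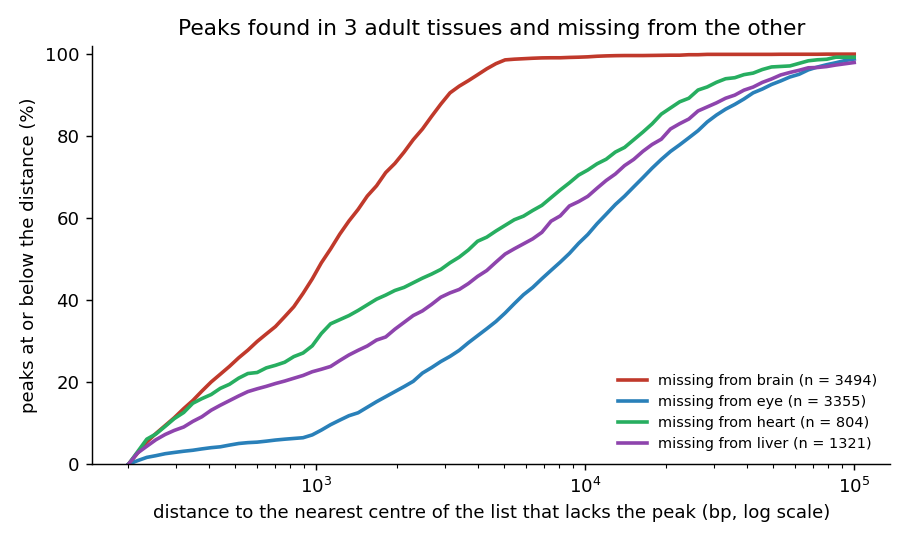
Cumulative share of peaks, in percent, against the distance in bp (log scale) to the nearest centre of the list that lacks the peak, for peaks found in 3 adult tissues and missing from brain, eye, heart or liver. In these full lists, 1.43% of the peaks missing from brain lie beyond 5000 bp, against 63.0% of those missing from eye, 49.2% from liver and 41.7% from heart. With lists of equal length the shares were 37.4%, 51.1%, 50.6% and 45.0%. The equal-length set missing from brain includes regions whose overlapping brain peak the cut removed.

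The nearest brain peaks were high in the brain list. Their median score percentile within that list was 89.996, and 1747 of the 3494 regions had a nearest brain peak in the highest 10% of the list by score. The brain peaks that overlapped brain-shared heart peaks had a median percentile of 70.8, and 15.9% of them were in the highest 10%. For peaks missing from eye, liver or heart, the nearest peak of the lacking list had a median percentile between 50.2 and 53.8. With lists of equal length, the median percentile of the nearest brain peak, ranked in its full list, was 80.7, against 54.9 to 57.8 for the other tissues. Those values are not on the same footing. The brain list was cut from 79008 to its 45785 highest-scoring peaks, which removed its low percentiles, whereas the eye list was not cut.

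The spacing of peaks within a list bears on this distance. No 2 brain centres were less than 606 bp apart, and no 2 heart centres less than 632 bp. A region with a brain centre nearer than 406 bp could therefore not have had an overlapping brain peak as well without a spacing that the brain list never shows, and 698 of the regions (19.98%) were in that position. The 3494 regions had 3002 different nearest brain peaks. Of these brain peaks, 2579 were nearest to 1 region each, and 423 were nearest to several, up to 5 regions, so that 915 regions (26.2%) shared their nearest brain peak with another. Within 1000 bp, 17 brain peaks had 2 regions, and in all 17 cases the regions lay on opposite sides of the brain centre. The rule and the heart spacing largely fix this. Regions at least 201 bp from brain and 632 bp apart have little room on the same side within 1000 bp. The lists give centres and no peak widths. A brain peak centred to one side of a region and brain DNA without enrichment at that region cannot be told apart from them. From technical replicates, the paper reports that peak locations were highly reproducible, whereas peak widths varied mostly with experimental factors.

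At the threshold itself, 7 regions were 201 bp and 6 were 202 bp from a brain centre, and 8 heart peaks found in eye and liver were left out with a brain centre at 200 bp and 8 more at 199 bp. Just inside, chr10:3273997-3274197 had a score of 305 in heart, 365 in eye and 434 in liver, and the brain centre 201 bp away scored 665, at percentile 93.9 of its list. Also at 201 bp was chr10:10653667-10653867, with 53.0 in heart, 30.9 in eye and 53.2 in liver (percentiles 31.0, 24.3 and 31.8). The brain peak beside it scored 205, at percentile 59.2 of its list. Just outside, a heart peak on Zv9_NA248 from 3274 to 3474 scored 20.1 and had a brain centre at 200 bp with a score of 128. Scores are the peak caller's values, given without a unit in the sources, and are ranked only within a list. By bisulfite sequencing of regions in embryos, the paper found the peak caller's score unrelated to how much CpG methylation was present. A high score or rank is therefore not read here as a higher level of methylation.

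The brain-lacking peaks were found less often in sperm and embryos than the brain-shared peaks. None of these 5 lists was used to choose them. In sperm, 1926 of the 3494 had an overlapping peak, which is 55.1% (95% CI 53.5 to 56.8), against 91.6% of the brain-shared peaks and a background of 85.8% over all heart peaks. In one-cell embryos, 1420 were present (40.6%, 95% CI 39.0 to 42.3), against 78.7% of the brain-shared peaks and 73.6% of all heart peaks. In mbt embryos, 1911 were present (54.7%), against 90.2% and 84.3%. In 3dpf embryos, 2324 were present (66.5%, 95% CI 64.9 to 68.1), against 89.6% and 84.9%. In MTX-3dpf embryos, 2214 were present (63.4%), against 88.1% and 82.8%. The difference from the brain-shared peaks was -38.1 percentage points in one-cell embryos (95% CI -39.7 to -36.4, Newcombe), -36.4 points in sperm and -35.5 points in mbt. It was smaller at 3dpf, with -24.8 points in the treated and -23.1 points in the untreated embryos (95% CI -24.7 to -21.6). With the adult lists at equal length the gap was narrower, with 72.4% against 92.3% in sperm, 59.0% against 79.4% in one-cell embryos and 76.0% against 90.8% in 3dpf embryos. The peaks then counted as lacking brain include some whose overlapping brain peak the cut removed.

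**Figure D2:**
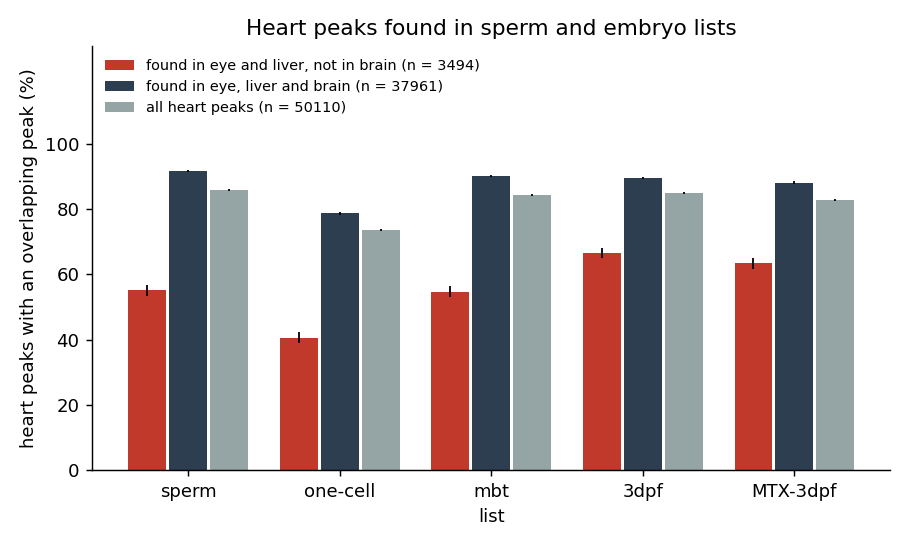
Share of heart peaks, in percent, with an overlapping peak in sperm, one-cell, mbt, 3dpf and MTX-3dpf, for the brain-lacking peaks, the brain-shared peaks and all heart peaks. Bars start at 0 and lines are Wilson 95% intervals; the brain-lacking peaks stand between 40.6% and 66.5%, and the brain-shared peaks between 78.7% and 91.6%.

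In the full lists, the shares differed with the adult tissue that was lacking. In sperm, the 55.1% of the brain-lacking peaks stood below the 89.2% of the peaks missing from eye (95% CI 88.1 to 90.2), the 74.1% of those missing from heart and the 72.7% of those missing from liver. In one-cell embryos the share was 40.6% for the brain-lacking peaks, against 79.4% for peaks missing from eye, 60.8% for heart and 61.8% for liver. In 3dpf embryos the shares were closer, with 66.5% for the brain-lacking peaks, against 84.7% for eye, 76.9% for heart and 71.1% for liver (95% CI 68.6 to 73.5). With lists of equal length the 6249 peaks lacking brain no longer stood below the heart and liver comparisons in each list. That set includes brain-shared peaks whose overlapping brain peak the cut removed, so this change is partly built in. Their shares were then 72.4% in sperm, 59.0% in one-cell embryos and 76.0% in 3dpf embryos. For peaks missing from heart the shares were 74.9%, 59.2% and 78.6%, and for liver 74.9%, 60.8% and 71.3%. Those missing from eye stayed higher, with 86.0%, 74.0% and 83.6%. In the full lists, the brain-lacking peaks had a median percentile of 48.0 in the heart list, against 12.9 for those missing from eye and 18.0 for those missing from liver.

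The brain-lacking peaks varied in how many of the 5 lists they were in. All 5 held 782 of them (22.4%), against 70.1% of the brain-shared peaks and a background of 62.8% over all heart peaks. None of the 5 held 440 of them (12.6%, 95% CI 11.5 to 13.7), against 2.09% of the brain-shared peaks and 4.43% of all heart peaks. The next most frequent pattern was presence in 3dpf and MTX-3dpf alone, with 405 peaks (11.6%), against 1.24% of the brain-shared peaks and 2.42% of all heart peaks. A further 331 were missing from one-cell embryos alone (9.47%), close to the 10.3% of the brain-shared peaks and the 9.58% of all heart peaks with that pattern. Sperm alone held 157 (4.49%), against 1.42% of the brain-shared peaks and 1.94% of all heart peaks.

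Presence also changed between successive stages. Of the brain-lacking peaks, 833 were in sperm and not in one-cell embryos (23.8%, against 16.2% of all heart peaks), and 327 in one-cell embryos and not in sperm (9.36%, against 3.93%). From one-cell to mbt embryos, 761 appeared (21.8%, against 14.7% of all heart peaks) and 270 were lost (7.73%, against 3.94%). More appeared than were lost in both sets. Between sperm and mbt the exchange was nearly even, with 425 in mbt alone (12.2%, against 4.3% of all heart peaks) and 440 in sperm alone (12.6%, against 5.85%), besides 1486 in both. From mbt to 3dpf, 789 appeared (22.6%, against 6.73% of all heart peaks) and 376 were lost (10.8%, against 6.09%), whereas among the brain-shared peaks 1719 appeared and 1927 were lost. Between the 3dpf samples, 2043 were in both MTX-3dpf and untreated embryos, 171 in MTX-3dpf alone (4.89%, against 2.12% of all heart peaks) and 281 in untreated embryos alone (8.04%, against 4.21%). The smaller number was in MTX-3dpf alone in both sets. The MTX-3dpf list was also the shorter, with 91872 peaks against 101868 in 3dpf. Each stage is 1 library, so a peak gained or lost between stages has no replicate check in these lists. The step from mbt to 3dpf is also a change of lane.

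Where a brain-lacking peak was present in an early list, it ranked lower there than a brain-shared peak did. The median percentile of the overlapping peak was 55.5 in sperm, against 78.7 for the brain-shared peaks, and 60.1 in one-cell embryos, against 84.9. It was 71.3 in mbt, against 83.7, then 66.4 in 3dpf, against 79.1, and 60.1 in MTX-3dpf, against 76.3. Where it was absent from sperm, the nearest sperm centre was a median of 1071 bp away, and counting any sperm centre within 1000 bp as present gave 75.8%, against 95.8% for the brain-shared peaks. By the same count the brain-lacking peaks reached 84.7% in 3dpf, against 94.2%, and 67.3% in one-cell embryos, against 91.6%.

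Presence in the early lists was similar from near to far from a brain centre in sperm, and less so in 3dpf. In sperm it was 58.1% for the 401 regions at 201 to 300 bp (95% CI 53.2 to 62.8) and 55.6% for the 329 at 3001 to 5000 bp (95% CI 50.2 to 60.9). In 3dpf it was 59.6% at 201 to 300 bp, 53.9% at 301 to 500 bp (95% CI 49.5 to 58.3) and 74.6% at 1001 to 2000 bp (95% CI 71.7 to 77.2). The 3 most distant classes in 3dpf stood at 65.0%, 70.2% and 62.0%. The 7 classes of distance thus all stood below the 89.6% of the brain-shared peaks in 3dpf.

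**Figure D3:**
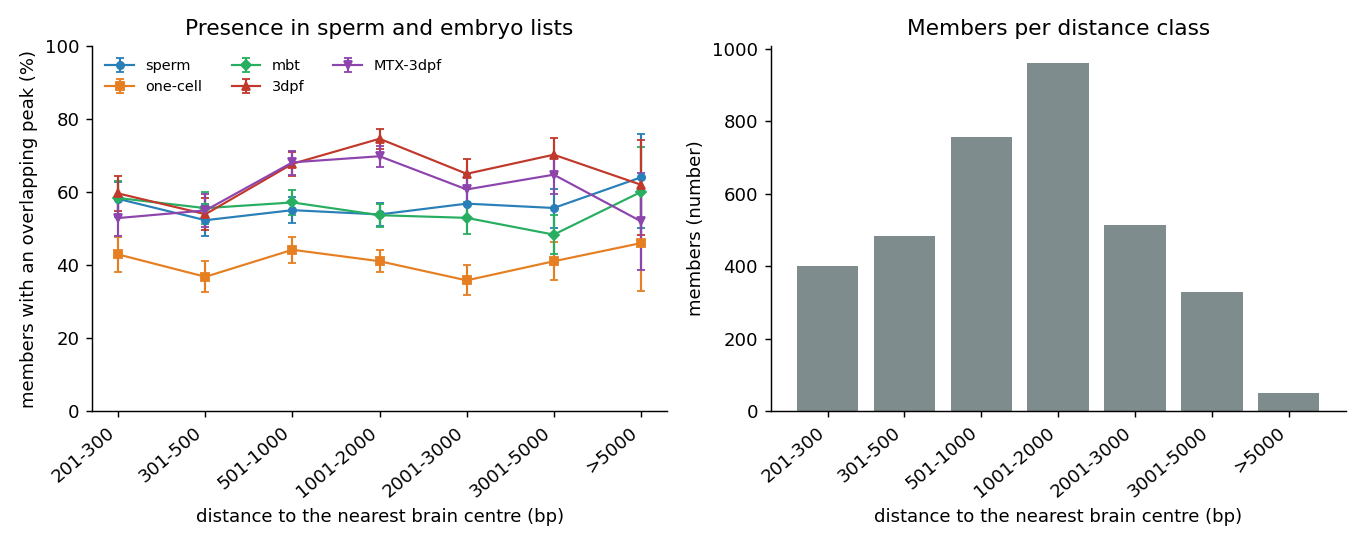
Left, share of the brain-lacking peaks, in percent, with an overlapping peak in each sperm or embryo list, by distance in bp to the nearest brain centre, with Wilson 95% intervals. Right, number of brain-lacking peaks per class; the class of 1001 to 2000 bp is the fullest with 960, and 50 lie beyond 5000 bp.

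In the lists that chose them, the brain-lacking peaks ranked near the middle. Their median percentile was 48.0 in heart, with quartiles of 26.3 and 73.4, then 48.1 in eye and 48.9 in liver. The brain-shared peaks had medians of 57.4 in heart, 52.9 in eye and 57.2 in liver. The median heart score was 124 for the brain-lacking peaks and 190 for the brain-shared peaks, and both ranged widely, from 1.85 to 1246 and from 1.33 to 1336. The ranks of a brain-lacking peak in heart, eye and liver were close together, with a median range of 7.61 percentile points between the highest and the lowest of the 3, against 8.03 for the brain-shared peaks. In 351 brain-lacking peaks (10.05%) all 3 ranks were in the highest 10%, against 8.55% of the brain-shared peaks.

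The heart list was next split by score into 10 equal parts. Among heart peaks found in eye and liver, the share that lacked brain was 19.3% in the lowest part (95% CI 17.3 to 21.5), fell to 5.70% in the ninth (95% CI 5.08 to 6.39) and was 8.86% in the highest (95% CI 8.07 to 9.72), above each of the 5 parts before it. The 406 brain-lacking peaks of the highest part were also the nearest to brain centres, with a median of 464 bp and 74.1% within 1000 bp, against 1447 bp and 36.5% in the lowest part. Their nearest brain peaks had a median percentile of 96.6.

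The presence in early lists was also compared among peaks of like rank. In each of the 10 parts the brain-lacking peaks were in fewer of the 5 lists than the brain-shared peaks of the same part. In the sixth part, where they came closest, they were in a mean of 3.36 lists, against 4.43. In the lowest part the means were 1.91 and 3.84, and in the highest 2.58 and 4.34. In sperm, the share in the highest part was 46.8% (95% CI 42.0 to 51.7), against 89.0% of the brain-shared peaks of that part.

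**Figure D4:**
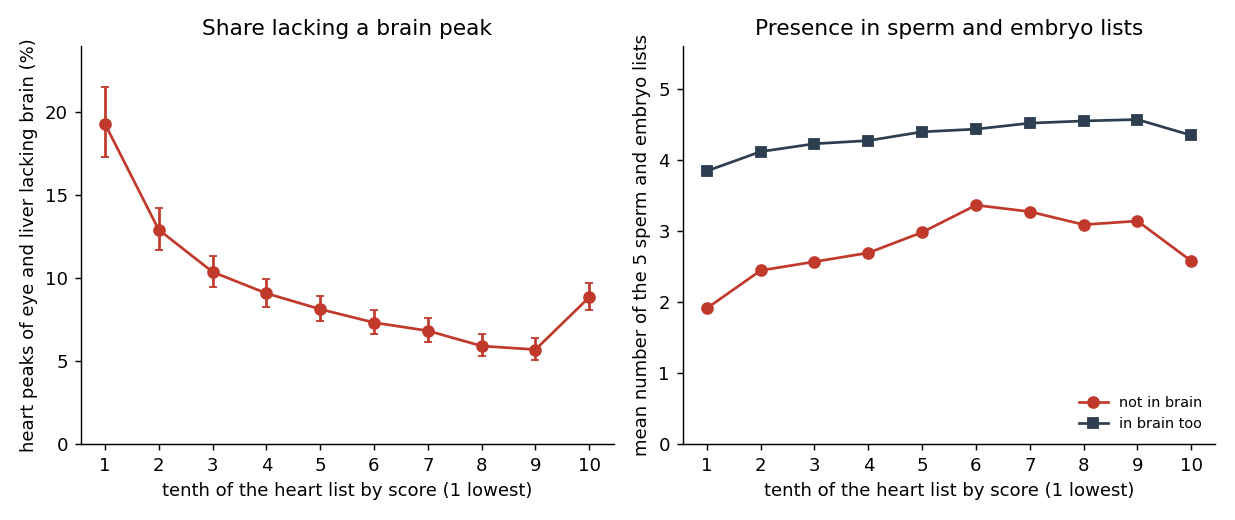
Left, share of heart peaks found in eye and liver, in percent, that lacked a brain peak, by 10% step of the heart list from the lowest to the highest score, with Wilson 95% intervals. Right, mean number of the 5 sperm and embryo lists that held a peak; the brain-lacking peaks (circles) lie between 1.91 and 3.36 and below the brain-shared peaks (squares) in every step.

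The highest-ranking brain-lacking peaks were near the top of several lists. The one with the highest mean percentile over heart, eye and liver was chr2:17957143-17957343, with scores of 1246 in heart (the second highest of that list), 1275 in eye and 1246 in liver. Its nearest brain centre was 2179 bp away, at percentile 99.99 of the brain list. It was in sperm, one-cell, mbt and 3dpf and not in MTX-3dpf, whose nearest centre was 1399 bp away. The next, chr20:50376601-50376801, scored 1204 in heart, 1176 in eye and 1223 in liver, lay 1362 bp from a brain centre and was in sperm, one-cell and mbt but in neither 3dpf list. Both regions were thus held by several early lists and had high-ranking brain peaks as neighbours.

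The region chr20:55787178-55787378 was the highest-scoring peak of the sperm list (1383), of the one-cell list (816), of the mbt list (1072) and of the 3dpf list (917), and was the 22nd in MTX-3dpf (769). These 5 peaks were centred on the same base as the heart peak. It scored 1094 in heart, 1159 in eye and 1141 in liver, which are percentiles of 99.87, 99.97 and 99.96. The brain list had no peak there. Its nearest brain centres were 1581 bp to the left, with a score of 472 (percentile 82.7), and 4099 bp to the right, with a score of 426. Heart had its next centre to the right at 2970 bp, eye at 3000 bp, liver at 3014 bp, sperm at 3008 bp, one-cell at 3018 bp and mbt at 2988 bp, so that these lists shared a neighbouring peak that brain lacked too. In 3dpf and MTX-3dpf a further peak lay 720 bp to the right. The highest-scoring peak of 4 early lists was therefore in 8 of the 9 lists, all but brain.

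The remaining regions of the 6 with the highest mean percentile differed among themselves in the early lists. On chromosome 7, chr7:66276076-66276276 scored 1178 in heart, 1192 in eye and 1163 in liver, was in all 5 early lists and had rank 4 in sperm and rank 5 in mbt. Its nearest brain centre was 872 bp to the left and the next to the right was 90591 bp away. On chromosome 4, chr4:61299701-61299901 scored 1102 in heart, 1156 in eye and 1098 in liver, and was the second highest peak of the one-cell list (770). It was also in mbt, but not in sperm, where a centre lay 234 bp away, nor in either 3dpf list, where the nearest was more than 3000 bp away. On chromosome 19, chr19:25501304-25501504 scored 1094, 1121 and 1121 in heart, eye and liver and was in one-cell embryos alone of the early lists. A brain centre was 371 bp from it, and the 3dpf, MTX-3dpf and sperm lists had centres 370, 373 and 388 bp from it.

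The third of the highest-ranking regions found in all 5 early lists was chr3:47995518-47995718, with 1084 in heart, 1077 in eye and 1037 in liver and a brain centre at 309 bp that scored 812. Of the regions found in none of the 5, the highest-ranking was chr24:3070554-3070754, with 1073 in heart, 1059 in eye and 1077 in liver. Its nearest centre was at 405 bp in brain, 394 bp in sperm, 407 bp in mbt and 490 bp in 3dpf. The next was chr17:43022302-43022502, with 1060, 1016 and 1050 in heart, eye and liver, a brain centre at 910 bp and a sperm centre at 270 bp. On Zv9_NA889, from 7339 to 7539, a region with 1058, 1052 and 1016 in these tissues had its nearest centre at 1611 bp in brain, 1620 bp in sperm and 1610 bp in 3dpf. At each of these 3, absence from the early lists was absence of an overlap, with a centre of every early list at most 1620 bp away.

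The regions far from any brain centre were few and of low rank. The 50 beyond 5000 bp had a median heart percentile of 26.8, 45 of them were on chromosomes, and 64.0% (95% CI 50.1 to 75.9) were in sperm. Of those on chromosomes, the farthest was chr20:31543338-31543538, 77964 bp from a brain centre, with scores of 26.8 in heart, 20.2 in eye and 15.7 in liver. It was in 4 of the 5 early lists, all but one-cell, and ranked higher there, at percentiles of 45.4 in sperm and 89.3 in mbt embryos and of 91.9 and 86.7 in the 3dpf and MTX-3dpf embryos, against 19.0 in heart, 16.7 in eye and 11.04 in liver. The second, chr14:31451437-31451637, was 51469 bp from a brain centre and in all 5 early lists, with scores of 20.6 in heart, 16.5 in eye and 76.4 in liver. It was at percentile 14.8 in heart, against 77.7 in sperm and 81.1 in mbt. The third on a chromosome, chr10:24130299-24130499, was 23995 bp away, scored 90.2, 98.7 and 29.5 in heart, eye and liver, and was in no early list. Next, chr5:40430687-40430887 was 23938 bp away and in all early lists but one-cell, with low scores throughout, 21.8 in heart, 9.53 in eye and 16.1 in liver. Of these 4, the 2 farthest thus stood at higher percentiles within the early lists that held them than within the heart, eye and liver lists. The region on chromosome 5 did so in mbt, 3dpf and MTX-3dpf and not in sperm.

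The brain-lacking peaks were spread over all 25 chromosomes, with 3307 on chromosomes and 187 (5.35%) on 112 unplaced sequences, against 4.79% of all heart peaks on such sequences. The share of heart peaks found in eye and liver that lacked brain had a median of 8.08% over the chromosomes. It was highest on chromosome 4, with 225 of 1854 (12.1%, 95% CI 10.7 to 13.7), and lowest on chromosome 21, with 78 of 1310 (5.95%, 95% CI 4.80 to 7.37). The intervals of chromosomes 1, 4 and 6 lay above the overall 8.43% and those of chromosomes 11, 19 and 21 below it. With brain centres within 1000 bp counted as present, chromosome 4 remained the highest, with 7.07%. The lowest was then chromosome 11, with 2.90%, and chromosome 21 had 2.98%. Within chromosome 4 the share was higher beyond 25 Mb, where 207 of 1536 lacked brain (13.5%, 95% CI 11.9 to 15.3), against 18 of 318 (5.66%) before it. Of those 207, 49.8% were in 3dpf and 56.0% in sperm, against 67.6% and 55.1% of the brain-lacking peaks elsewhere in the genome. The brain-shared peaks beyond 25 Mb were also less often in 3dpf, with 69.9%, against 90.4% elsewhere.

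**Figure D5:**
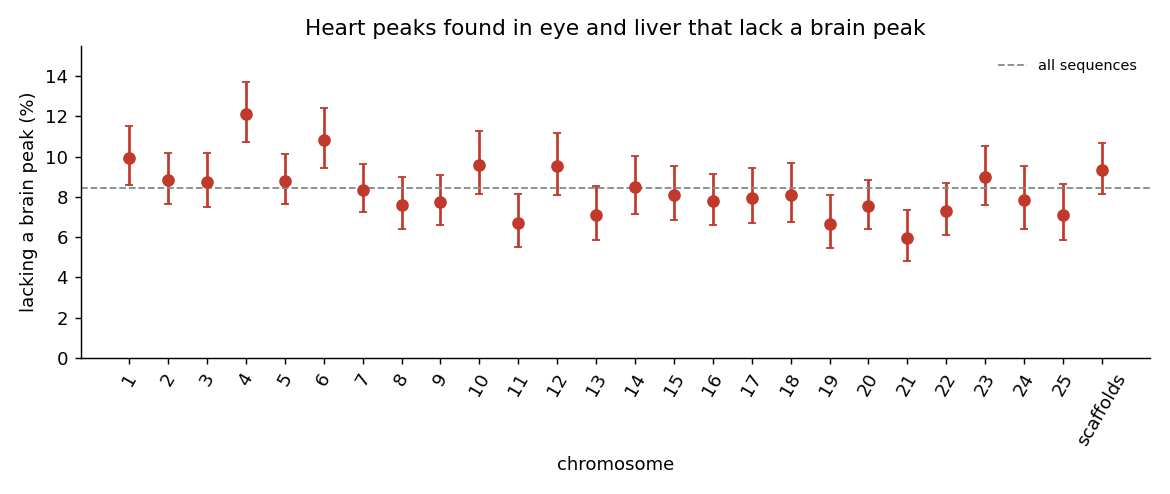
Share of heart peaks found in eye and liver, in percent, that lacked a brain peak, for each chromosome and for the unplaced scaffolds together, with Wilson 95% intervals. The dashed line is the share over all sequences, 8.43%; chromosome 4 stands highest at 12.1% and chromosome 21 lowest at 5.95%.

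The brain-lacking peaks lay closer to other heart peaks than the brain-shared peaks did. Their median distance to the next heart centre was 2785 bp, against 7468 bp, and 1180 of them (33.8%, 95% CI 32.2 to 35.4) had another heart centre within 2000 bp, against 12.5% of the brain-shared peaks and a background of 14.8% over all heart peaks. Peaks missing from eye had a median of 8127 bp to the next heart centre, and those missing from liver 7378 bp. With lists of equal length the median was 5696 bp for the larger set of peaks then lacking brain, against 8410 bp for eye and 7980 bp for liver. The next heart peak of those 1180 was itself brain-lacking in 426 cases (36.1%) and brain-shared in 551 (46.7%). Of all 50110 heart peaks, 3494 were brain-lacking and 37961 brain-shared. On a fixed grid of 100 kb, 2446 windows held a brain-lacking peak, 1722 of them a single one, and 1772 of the peaks were in windows with 2 or more. No background over all heart peaks is given for these windows.

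The fullest window was on chromosome 6 from 23900001 to 24000000, with 9 brain-lacking peaks among 28 heart peaks. The window held 32 brain peaks, more than the heart list, and the 9 were between 214 and 2287 bp from a brain centre, with a median of 338 bp. Sperm overlapped 6 of them, one-cell embryos 2, mbt 7, and 3dpf and MTX-3dpf 8 each. On Zv9_scaffold3466, the first 100 kb held 7, all of them in sperm and in 3dpf, between 206 and 939 bp from a brain centre. On chromosome 20, the window from 55700001 to 55800000 held 7 of its 10 heart peaks as brain-lacking, including the region that topped 4 early lists. That window held 12 brain peaks, 10 each in eye and liver and 11 in sperm. Brain thus had at least as many peaks as the other adult tissues in all 3 windows, at positions other than the brain-lacking peaks. The brain list was longer over the whole genome too, with 79008 peaks against 50110 in heart, so these counts alone show no excess of brain peaks there.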

How the data were processed

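MBD-seq peak lists of 9 conditions were analysed. Per the paper's methods and the labels, the authors aligned reads to Zv9 with BWA 0.5.8c, kept properly paired reads with mapping quality above 5, called peaks with MACS2 2.0.10.20120703 and deposited each peak as its centre extended by 100 bp to each side. The score deposited by the authors with each peak has no stated unit and was ranked within its own list. The paper found the peak caller's score unrelated to how much CpG methylation was present, so ranks are not levels of methylation. Each condition had 1 list, and brain was called on pooled lanes and so on more reads than the other adult tissues. Lists were not adjusted for sample depth, and peak widths were not available.

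An overlap of 1 bp or more between intervals made peaks of different lists shared. Distances were taken between centres. Shares have Wilson 95% intervals and differences Newcombe intervals. Brain-lacking peaks were compared with brain-shared peaks and all heart peaks. Regions were named by rule: the 6 with the highest mean percentile in heart, eye and liver, the 3 highest in all 5 and in none of the sperm and embryo lists, the 4 farthest from a brain centre on chromosomes, the 3 fullest 100 kb windows, the chromosomes with the highest and lowest shares, and the 2 nearest peaks on each side of the overlap limit. The members and these choices were made with earlier results of the same data known. The 9 alternatives changed the overlap, the distance, the score minimum, the list lengths, the sequences and the tissue whose list was used. The comparison with peaks missing from eye, heart or liver was repeated with lists of equal length, an alternative added after the data had been seen. Scripts ran under Python 3.11.15 with pandas 2.3.3, NumPy 2.4.6, matplotlib 3.10.9 and SciPy 1.17.1. The overlap and distance steps were tested on simulated data.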

Additional observations from a re-analysis of the deposited data

Results flagged for a closer look

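In the brain-shared peaks, the one-cell list held 78.7%, apart from the other 4 sperm and embryo lists, of which the next lowest held 88.1%. In all heart peaks, the one-cell list held 73.6%, and the next lowest list 82.8%. The one-cell value stood far from the rest of its group in both sets, which overlap, and in 2 of 7 groups examined. The one-cell list was the longest of these lists, with 178587 peaks. Chance marks about 1 in 20 groups of like values. The lists here are different conditions with 1 library each, so that rate gives no chance level for this difference.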

How the results depend on the processing

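The brain-lacking peaks were less often present than the brain-shared peaks in 5 of 5 early lists under all 9 alternatives. Where brain centres within 500 or 1000 bp counted as present, the brain-shared set was left at its 37961 peaks. Relative to 3494 peaks, there were 1853 with any brain centre within 1000 bp counted as present, 1664 with peaks of at least the median score, 6249 with the 4 adult lists limited to equal numbers and 5745 with the brain list alone shortened. The share lacking brain, 8.43%, was 10.8% with an overlap of 100 bp, 6.29% with brain centres within 500 bp and 4.47% within 1000 bp counted as present, 8.16% at the median score, 15.8% with equal numbers and 13.9% with a shortened brain list. The mean presence over the early lists, 56.1%, was 50.3% with an overlap of 100 bp, 63.8% at the median score, 70.4% with equal numbers and 65.3% with a shortened brain list. The median distance to brain was 696 bp at 100 bp of overlap, 1445 bp and 1960 bp at 500 and 1000 bp, 1027 bp at the median score, 2789 bp with equal numbers and 2152 bp with a shortened brain list. The median heart percentile was 44.5 and 42.4 at 500 and 1000 bp, 75.2 at the median score, 37.8 with equal numbers and 35.2 with a shortened brain list. The share on chromosome 4 was 7.07% at 1000 bp. The alternatives change the members by construction. No paired analysis was possible because each condition had 1 library. The number of lists and the missing widths limit precision.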
